A study of Mus musculus with 63 samples.

Results

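Brush border peptidases and phosphatases are 9 of the 54752 genes in the count tables: Mep1a, Mep1b, Anpep, Dpp4, Enpep, Ace, Xpnpep2, Alpi and Enpp7. They were taken by gene symbol in every table. Their choice rested on measured values: they were selected on their rise after combined loss of CDK8 and CDK19, with Mep1a and Anpep among the larger rises on day 7. The 2 day 7 comparisons of combined loss are therefore given as values without a test. The choice also named the rise by day, medium, line and in isolated epithelial cells. Adjusted p-values and counts in those comparisons thus describe genes chosen with these data known. Neither they nor the direction of a rise there are independent evidence. The study sequenced RNA from mouse small intestinal organoids and isolated intestinal epithelial cells (IECs) to ask what CDK8 and CDK19, the paired kinases of the Mediator complex, do for intestinal differentiation. 57 libraries in 19 groups of 3 were used here. The labels do not say whether the 3 libraries of an organoid group are separate cultures, so p-values there measure a spread that may be technical. Each IEC library carries a number of its own, which the labels do not explain. Levels are given as CPM, the count scaled to the library's total with TMM factors. A gene is said to rise or fall where edgeR's quasi-likelihood test gave a Benjamini-Hochberg adjusted p under 0.05 over all genes and the fitted fold was over 1.5. A value set before an adjusted p is a log2 fold change.

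The time course used 1 organoid line, VillinCreERT2/Cdk8 fl/fl/Cdk19-/-, on a C57BL/6 strain. Both of its arms lacked CDK19 from the germ line, and 24 h with 100 nM 4-hydroxytamoxifen (4-OHT) or the vehicle ethanol (EtOH) preceded collection on day 3, 5, 7 or 10. The Cre recombinase is driven by the villin promoter, so deletion of Cdk8 is induced in epithelium, and exposure to 4-OHT cannot be told apart from deletion in this line. The same line was also grown in Wnt3-conditioned medium (Wnt3-CM) to day 10. Separate day 7 cultures, all given 4-OHT, came from 5 lines: VillinCreERT2, C57BL/6, VillinCreERT2/Cdk8 fl/fl (CDK8iIEC-KO), Cdk8 fl/fl/Cdk19-/- and VillinCreERT2/Cdk8 fl/fl/Cdk19-/- (CDK8iIEC-KO/Cdk19-/-). Each of these genotypes was a single line, so genotype and line cannot be told apart. VillinCreERT2/Cdk8 fl/fl/Cdk19 D173A/- organoids, which carry a kinase-dead CDK19 allele over a deleted one, received EtOH or 100 nM 4-OHT and were collected on day 7. IECs came from VillinCreERT2 and VillinCreERT2/Cdk8 fl/fl/Cdk19-/- mice that were all given tamoxifen at 80 mg/kg, with collection 14 days after dosing ended.

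The brush border is the carpet of microvilli on the luminal face of the absorptive enterocyte, and its membrane carries the enzymes that finish digestion. Peptidases anchored there trim the oligopeptides left by pancreatic proteases into di- and tripeptides and free amino acids for uptake, and phosphatases and phosphodiesterases act on lipids, nucleotides and bacterial products. In the small intestine these enzymes mark mature enterocytes and are scarce in crypt cells. Meprin, a metalloprotease, is built from the subunits encoded by Mep1a and Mep1b. Anpep, Enpep and Xpnpep2 encode aminopeptidases, which remove residues from the amino end of a peptide. Dpp4 and Ace encode enzymes that release dipeptides, Dpp4 from the amino end and Ace from the carboxyl end. Alpi encodes intestinal alkaline phosphatase and Enpp7 alkaline sphingomyelinase.

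Promoter sequences are shown for 3 of these genes, because Mep1a was the peptidase gene with the largest rise on day 10, Enpp7 moved against the others and Alpi was the phosphatase that rose with the peptidases on day 10. Each window runs from 250 bases before to 50 bases after the RefSeq start site on build GRCm38.p6 and is printed 5′ to 3′ on the gene's own strand. Capitals mark CAAAGT, the half-site bound by HNF4 factors, and CATAAA, a sequence bound by CDX factors, on either strand. The Mep1a window lies at chr17:43502724-43503023 on the minus strand, the Alpi window at chr1:87101557-87101856 on the minus strand and the Enpp7 window at chr11:118987931-118988230 on the plus strand.
Mep1a: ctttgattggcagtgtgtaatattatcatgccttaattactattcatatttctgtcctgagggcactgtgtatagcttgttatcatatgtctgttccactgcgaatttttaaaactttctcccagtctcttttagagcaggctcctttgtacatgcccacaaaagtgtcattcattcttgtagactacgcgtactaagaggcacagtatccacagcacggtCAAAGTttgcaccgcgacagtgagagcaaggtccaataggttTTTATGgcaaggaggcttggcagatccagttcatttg
Alpi: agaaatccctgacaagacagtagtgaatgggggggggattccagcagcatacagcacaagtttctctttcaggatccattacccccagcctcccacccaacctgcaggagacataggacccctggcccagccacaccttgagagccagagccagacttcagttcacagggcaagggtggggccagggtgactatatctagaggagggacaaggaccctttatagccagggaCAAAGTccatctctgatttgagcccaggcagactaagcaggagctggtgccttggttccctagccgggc
Enpp7: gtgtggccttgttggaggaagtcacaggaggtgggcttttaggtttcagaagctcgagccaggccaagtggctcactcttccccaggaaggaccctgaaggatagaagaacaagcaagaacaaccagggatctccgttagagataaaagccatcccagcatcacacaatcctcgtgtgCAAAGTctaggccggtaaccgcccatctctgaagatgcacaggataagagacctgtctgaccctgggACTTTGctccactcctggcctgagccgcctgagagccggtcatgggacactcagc
CAAAGT occurred on either strand in 5 of the 9 RefSeq promoter windows of the peptidases and phosphatases, those of Alpi, Enpp7 and Mep1a and both windows of Ace. It occurred in 14.4% of all 32851 windows of this length. CATAAA occurred in the Mep1a window alone, against 11.9% of all windows. The motif of GATA factors, spelled AGATAA, occurred in 2 of the 9 windows, those of Dpp4 and Enpp7, against 11.2% of all windows. GTTAAT, part of an HNF1 site, occurred in none of them and in 7.1% of all windows. The 4 motifs do not overlap one another in these windows, and a match describes letters and not a bound site. No window for Mep1b is printed here. The 9 counted windows include both of Ace, so they do not match the 9 genes singly. Which genes have a counted window is not listed in full, and Mep1b may be among them.

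Totals ranged from 15485959 to 32909565 counts per library, and all 9 genes passed edgeR's filter on low counts in every fit. Counts of the deleted genes stayed above 0 in every group, so they did not check the genotypes, and the cause was not tested. In the time course, Cdk8 averaged 49.2 CPM with EtOH and 45.2 with 4-OHT on day 7. Cdk19 averaged 31.0 CPM in C57BL/6 organoids and 25.6 in Cdk8 fl/fl/Cdk19-/- organoids. Groups are therefore named by their labels. The 10 enterocyte markers were detected in every set of libraries. Immune, mesenchyme and endothelium markers were close to 0 in organoids, where the 8 immune markers summed to at most 1.5 CPM in any library, with Cd8a, a T cell marker, at 0 in every organoid library. IEC libraries held 1659 to 2987 CPM of the immune markers. In bulk RNA, fewer cells of a type and less RNA per cell cannot be told apart.

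Levels differed widely among these genes. Per kilobase of exon, Anpep was the most abundant in VillinCreERT2 IECs at 2774 ± 270.4 CPM per kb (mean ± SD, n = 3), followed by Alpi at 1461 ± 176. Ace at 515 ± 56.0 and Mep1b at 489.6 ± 22.4 came next and did not differ beyond their spread. Enpp7 at 377 ± 46.3, Enpep at 287 ± 47.4, Dpp4 at 167 ± 23.0, Mep1a at 59.0 ± 2.83 and Xpnpep2 at 43.2 ± 2.67 CPM per kb completed the order. In EtOH organoids on day 3 the same scale ran from 179 ± 10.6 for Anpep and 133 ± 11.5 for Alpi down to 9.82 ± 0.542 for Mep1a and 4.02 ± 1.03 for Enpp7. Enpp7 was thus the lowest of the 9 in young organoids and in the middle of the order in IECs. Organoid and IEC tables were normalized separately, so the same gene is not compared between them.

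In the time course, the meprin subunit gene Mep1a (ENSMUSG00000023914.16, chr17:43474324-43502812 on GRCm38) rose with 4-OHT on days 5 and 10. On day 3, Mep1a was at 36.0, 33.1 and 32.5 CPM with EtOH and 36.7, 40.7 and 39.3 with 4-OHT. On day 5, Mep1a was at 32.8, 32.3 and 33.5 with EtOH and 107, 105 and 81.8 with 4-OHT. On day 7, Mep1a was at 26.7, 29.8 and 26.2 with EtOH and 147, 153 and 126 with 4-OHT, and on day 10 at 22.1, 27.7 and 26.7 with EtOH and 93.5, 88.8 and 100 with 4-OHT. The arms overlapped on no day, and the 4-OHT libraries stood far above the EtOH libraries from day 5. The rise was 2.98-fold on day 5, with a log2 fold change of 1.58 ± 0.093 (SE, adjusted p = 2.7e-13), and 3.69-fold on day 10 (1.88, adjusted p = 3.84e-15). On day 3 Mep1a differed by 0.20, adjusted p = 0.105, and on day 7, a comparison used in the choice of genes, its fitted fold was 5.14.

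Mep1b (ENSMUSG00000024313.8, chr18:21061923-21100199), which encodes the membrane-anchored meprin subunit, fell before it rose. On day 3, Mep1b was at 152, 154 and 156 CPM with EtOH and 82.1, 92.3 and 89.7 with 4-OHT. On day 5, Mep1b was at 176, 171 and 158 with EtOH and 258, 256 and 231 with 4-OHT. On day 7, Mep1b was at 143, 161 and 148 with EtOH and 296, 329 and 274 with 4-OHT, and on day 10 at 209.7, 183 and 181 with EtOH and 352, 352 and 303 with 4-OHT. All 4-OHT libraries were below all EtOH libraries on day 3 and above them on each later day. The fall on day 3 was 1.75-fold (-0.81, adjusted p = 1.39e-09). On day 5 the difference was 0.56, adjusted p = 1.2e-06, with a fold of 1.47 that lies just under the cutoff of 1.5, and on day 10 Mep1b rose 1.75-fold (0.81, adjusted p = 5.26e-10). Its fitted fold on day 7 was 1.99. Without the day 5 4-OHT replicate 3, the log2 fold change of day 5 was 0.59, past the cutoff.

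Anpep (ENSMUSG00000039062.15, chr7:79821803-79861059) encodes aminopeptidase N, which releases neutral residues. On day 3, Anpep was at 788, 704 and 724 CPM with EtOH and 563, 665 and 545 with 4-OHT. On day 5, Anpep was at 794, 798 and 681 with EtOH and 1447, 1299.7 and 1171 with 4-OHT. On day 7, Anpep was at 579, 652 and 641 with EtOH and 1911, 2105 and 1768 with 4-OHT, and on day 10 at 287, 295 and 301 with EtOH and 610.4, 566 and 568 with 4-OHT. All 4-OHT libraries were above all EtOH libraries from day 5. The level with EtOH declined between day 7 and day 10, and the level with 4-OHT declined over the same days from a higher value. Anpep rose 1.72-fold on day 5 (0.79, adjusted p = 2.6e-08) and 1.97-fold on day 10 (0.98, adjusted p = 1.35e-10). On day 3 all 4-OHT libraries lay below all EtOH libraries, with a log2 fold change of -0.32 ± 0.083 (SE, adjusted p = 0.00284), under the fold cutoff. The fitted fold on day 7 was 3.09.

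Enpep (ENSMUSG00000028024.14, chr3:129269175-129332720), which encodes the aminopeptidase that releases acidic residues, showed the steepest early fall of the 9 and no later rise past the cutoffs. On day 3, Enpep was at 205, 196 and 211 CPM with EtOH and 35.3, 43.9 and 42.5 with 4-OHT. On day 5, Enpep was at 272, 373 and 254 with EtOH and 329, 314 and 361 with 4-OHT. On day 7, Enpep was at 371, 379.8 and 304 with EtOH and 418, 349 and 287 with 4-OHT, and on day 10 at 316, 235 and 243 with EtOH and 451, 334 and 338 with 4-OHT. On day 3 the 4-OHT libraries were far below the EtOH libraries, and on days 5 and 7 the arms overlapped. Enpep fell 5.03-fold on day 3, with a log2 fold change of -2.33 ± 0.18 (SE, adjusted p = 1.22e-08). It differed by 0.16, adjusted p = 0.477 on day 5 and by 0.50, adjusted p = 0.0197 on day 10, where all 4-OHT libraries were above all EtOH libraries and the fold of 1.41 was under the cutoff. Leaving out day 10 EtOH replicate 1, the highest of its group, gave 0.65 with adjusted p = 0.00689, past both cutoffs. The fitted fold on day 7 was 0.999.

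Xpnpep2 (ENSMUSG00000037005.16, chrX:48108725-48136981) encodes a membrane-bound aminopeptidase that cuts before proline. On day 3, Xpnpep2 was at 63.0, 58.2 and 57.7 CPM with EtOH and 43.9, 53.2 and 45.7 with 4-OHT. On day 5, Xpnpep2 was at 65.0, 68.8 and 53.7 with EtOH and 85.1, 85.0 and 78.8 with 4-OHT. On day 7, Xpnpep2 was at 54.8, 57.7 and 47.3 with EtOH and 104, 114 and 85.7 with 4-OHT, and on day 10 at 62.3, 46.2 and 48.7 with EtOH and 106, 73.2 and 67.0 with 4-OHT. The 4-OHT libraries were the lower ones on day 3 and the higher ones on the later days, by less than for the meprins. On day 10 Xpnpep2 rose 1.56-fold (0.64, adjusted p = 0.00188), a fold close to the cutoff. Without day 10 EtOH replicate 2 its log2 fold change was 0.56 and without day 10 4-OHT replicate 1 it was 0.42, both under the fold cutoff. It differed by -0.32, adjusted p = 0.115 on day 3 and by 0.41, adjusted p = 0.0389 on day 5, and its fitted fold on day 7 was 1.91.

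Dpp4 (ENSMUSG00000035000.8, chr2:62330073-62412231) encodes dipeptidyl peptidase IV, known for the clearance of incretin hormones. On day 3, Dpp4 was at 111, 90.9 and 97.2 CPM with EtOH and 73.6, 85.6 and 81.6 with 4-OHT. On day 5, Dpp4 was at 101, 101 and 105 with EtOH and 168, 168 and 153 with 4-OHT. On day 7, Dpp4 was at 81.9, 108 and 97.4 with EtOH and 229, 257 and 202 with 4-OHT, and on day 10 at 99.4, 104 and 108 with EtOH and 235, 215 and 222 with 4-OHT. EtOH libraries stayed near the same level over the 4 days, and the 4-OHT libraries went from below them on day 3 to above them from day 5. Dpp4 rose on day 5 (0.68, adjusted p = 1.11e-06) and rose 2.16-fold on day 10 (1.11, adjusted p = 6.54e-11). It differed by -0.31, adjusted p = 0.00675 on day 3, and its fitted fold on day 7 was 2.40. Its exons share 232 bp with the antisense gene Gm13561, and the strand setting of the counting is not given in the sources used here.

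Ace (ENSMUSG00000020681.14, chr11:105967945-105989964) encodes angiotensin-converting enzyme, which in the gut cuts dipeptides from digested protein. On day 3, Ace was at 79.2, 59.7 and 66.6 CPM with EtOH and 45.1, 51.5 and 44.2 with 4-OHT. On day 5, Ace was at 57.5, 64.5 and 54.2 with EtOH and 219.6, 223 and 218 with 4-OHT. On day 7, Ace was at 69.0, 74.6 and 70.1 with EtOH and 338, 331 and 247 with 4-OHT, and on day 10 at 72.6, 57.5 and 59.9 with EtOH and 243, 189.6 and 194 with 4-OHT. The 4-OHT libraries were below the EtOH libraries on day 3 and several times above them from day 5. Ace rose 3.75-fold on day 5, with a log2 fold change of 1.91 ± 0.13 (SE, adjusted p = 3.8e-10), which was the largest rise of the 9 on that day. On day 10 the rise was 3.30-fold (1.72, adjusted p = 4.24e-10), and the fitted fold on day 7 was 4.29. On day 3 it differed by -0.55, adjusted p = 0.00182, with a fold of 1.46 that passed the cutoff when day 3 EtOH replicate 2 (-0.62) or day 3 4-OHT replicate 2 (-0.62) was left out. Ace shares 295 bp of exon with the antisense gene Gm11651.

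Alpi (ENSMUSG00000079440.2, chr1:87098002-87101606), the alkaline phosphatase gene, fell on day 3 and rose on day 10. On day 3, Alpi was at 325, 280.2 and 328 CPM with EtOH and 129, 149 and 127 with 4-OHT. On day 5, Alpi was at 527, 692 and 446 with EtOH and 723, 716 and 894 with 4-OHT. On day 7, Alpi was at 755, 663 and 513 with EtOH and 1020.0, 809 and 747 with 4-OHT, and on day 10 at 653, 368 and 372 with EtOH and 1094, 807 and 682 with 4-OHT. On day 3 the 4-OHT libraries were below the EtOH libraries, on day 5 and day 10 above them, and on day 7 the arms overlapped by 1 library. Alpi fell 2.30-fold on day 3 (-1.20, adjusted p = 0.000758) and rose 1.85-fold on day 10 (0.89, adjusted p = 0.00478). Fitted with the day 10 libraries alone, the rise had an adjusted p of 0.0772. It differed by 0.49, adjusted p = 0.11 on day 5, and its fitted fold on day 7 was 1.33. Alpi has close paralogs in Akp3 and Alppl2, between which the counting may split reads, and Akp3 differed by 1.09, adjusted p = 0.0988 on day 10.

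Enpp7 (ENSMUSG00000046697.17, chr11:118988188-118993221), the alkaline sphingomyelinase gene, was lower with 4-OHT on every day. On day 3, Enpp7 was at 8.97, 9.03 and 5.53 CPM with EtOH and 2.64, 2.05 and 2.15 with 4-OHT. On day 5, Enpp7 was at 20.9, 54.3 and 31.0 with EtOH and 4.81, 5.31 and 7.66 with 4-OHT. On day 7, Enpp7 was at 87.5, 67.9 and 70.2 with EtOH and 9.33, 7.93 and 12.1 with 4-OHT, and on day 10 at 73.2, 51.4 and 49.0 with EtOH and 30.1, 19.6 and 21.9 with 4-OHT. The arms overlapped on no day, and every 4-OHT library was below every EtOH library. In both arms the level was higher on day 10 than on day 3, when it was at most 9.03 CPM. Enpp7 fell 3.44-fold on day 3 (-1.78, adjusted p = 0.00432), 5.98-fold on day 5 (-2.58, adjusted p = 1.45e-05) and 2.43-fold on day 10 (-1.28, adjusted p = 0.00122). Its fitted fold on day 7 was 7.68 in the same direction. On day 3 the 4-OHT libraries held 54, 43 and 45 counts of Enpp7, and 43 was the lowest count of the 9 genes in any library.

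**Figure D1:**
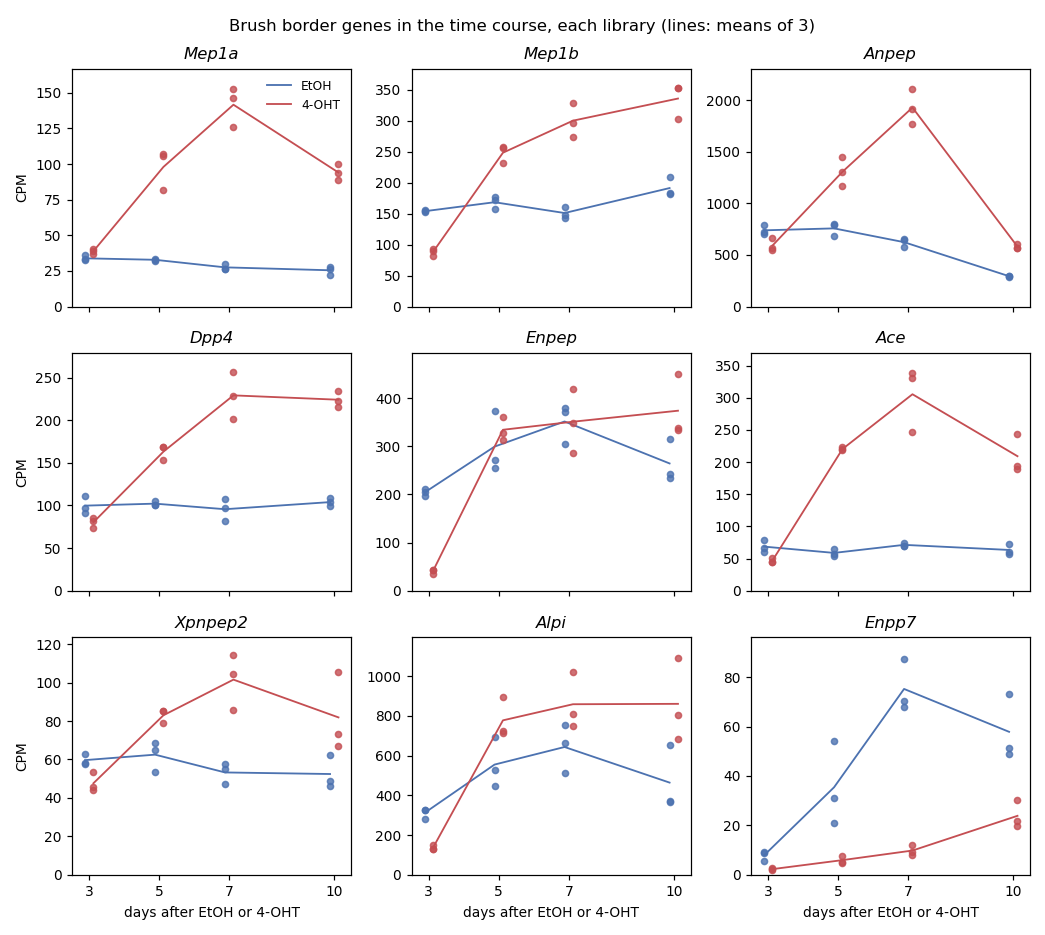
CPM of each gene (vertical axis) against days after EtOH or 4-OHT (horizontal axis) in VillinCreERT2/Cdk8 fl/fl/Cdk19-/- organoids, with 1 point per library and lines through the means of 3. The 4-OHT points of Mep1a, Ace and Dpp4 stand above the EtOH points from day 5, Enpep starts far below on day 3 at 35.3, 43.9 and 42.5 CPM, and Enpp7 stays below throughout.

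Counted over the 9 genes, 4-OHT gave falls on day 3 and rises afterwards. On day 3, 0 rose and 4 fell (Mep1b, Enpep, Alpi and Enpp7), where 6.42% and 5.95% of all genes tested did. On day 5, 4 rose (Mep1a, Anpep, Dpp4 and Ace) and Enpp7 fell, against 8.58% and 4.62% of all genes. On day 7, 6 were past the cutoffs upwards and 1 downwards, against 9% and 9.25%, a comparison from which nothing is read because it served in the choice. On day 10, 7 rose, Enpp7 fell and Enpep did not pass, against 8.86% and 6.92% of all genes. The median log2 fold change of the 9 was -0.55 on day 3, 0.56 on day 5 and 0.89 on day 10, beside -0.022, 0.0012 and 0.020 over all genes tested. On day 3 all libraries of 8 genes lay below the controls and those of 1 above, while 27.4% and 23.8% of all genes did so. On day 5 these were 1 and 7, against 23% and 22.8%, and on day 10 they were 1 and 8, against 25.3% and 27.9%. DESeq2 also called 0 upwards on day 3. In edgeR, 9 of the 9 had an unadjusted p under 0.05 on day 3, as did 6626 of all 15447 genes tested.

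The change between early and late days was tested by subtracting the response on day 3 from that on a later day in the same fit. By day 5, 8 of the 9 responses had moved upwards past the cutoffs and that of Enpp7 had not (-0.80, adjusted p = 0.302), where 11.2% of all genes moved upwards and 9.01% downwards. By day 10 the count was again 8, with Enpp7 at 0.50, adjusted p = 0.473, against 13.9% and 12.4% of all genes. Enpep moved furthest, by 2.49 ± 0.24 (standard error) on the log2 scale to day 5 and by 2.83 ± 0.24 to day 10. Ace moved by 2.45 ± 0.18 and 2.27 ± 0.18, and Xpnpep2 the least of the 8, by 0.73 ± 0.22 and 0.97 ± 0.22. Both differences share the day 3 libraries.

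With EtOH, separate libraries of the same line were compared between days, so day cannot be told apart from other differences between the sets collected. From day 3 to day 5 with EtOH, Enpp7 rose 4.52-fold (2.18, adjusted p = 6.82e-05) and Alpi 1.78-fold (0.83, adjusted p = 0.0105), and none fell, where 2.82% of all genes rose and 9.14% fell. The Alpi call rested on day 5 EtOH replicate 2, the highest of its group, without which adjusted p = 0.0673. Enpep passed upwards without day 5 EtOH replicate 1 (0.62) or replicate 3 (0.66). From day 3 to day 10, Enpp7 rose 7.38-fold (2.88, adjusted p = 3.72e-07) and Anpep fell 2.51-fold (-1.33, adjusted p = 7.9e-14), where 16% and 22.4% of all genes did. Over these days 6 of the 9 had an unadjusted p under 0.05 in edgeR, as did 10755 of all 15447 genes tested. An adjusted p under 0.05 was reached by 5 of the 9, a count not made over all genes. Among them Mep1a (-0.41, adjusted p = 0.000503), with all day 10 libraries lower, and Mep1b (0.31, adjusted p = 0.000535), with all higher, had folds under the cutoff. Dpp4 (0.059, adjusted p = 0.566) and Ace (-0.11, adjusted p = 0.435) did not pass. Alpi was under the fold cutoff too (0.58, adjusted p = 0.0379), and past it without day 10 EtOH replicate 2 (0.72) or 3 (0.72).

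The genes did not all vary together. Over the 24 time course libraries, which share a line and differ in day and treatment, the log2 CPM of Mep1b had a Pearson r of 0.928 with the mean of the other 8, Ace 0.911 and Enpp7 0.0349. Among pairs, Dpp4 and Ace were the most alike at 0.953, Enpep and Alpi reached 0.939, and Anpep and Enpp7 were the least alike at -0.441. Of 9424 genes outside the 9 that averaged at least 10 CPM, the 5 most like their mean standardised level were Clic5 (0.988), which encodes a chloride intracellular channel protein, Gcnt4 (0.987), Hsd17b11 (0.983), Gm21885 (0.976) and Arhgef2 (0.976). These are descriptions over libraries of the same organoid line.

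**Figure D2:**
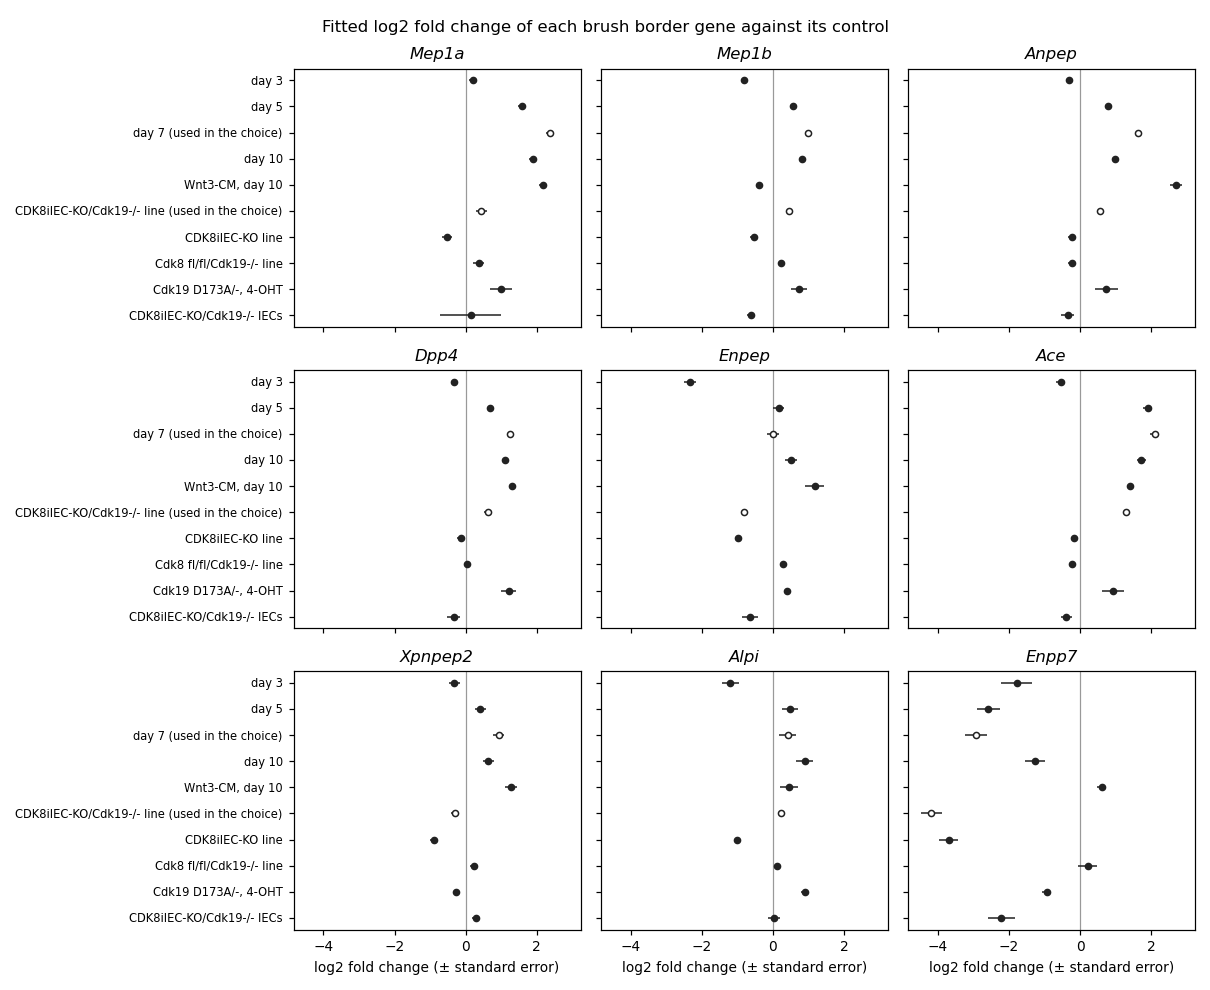
Fitted log2 fold change (horizontal axis, bars are the standard error) of each gene against its control in each comparison. Open circles are the 2 day 7 comparisons of combined loss, which served in the choice of genes and are given without a test. Mep1a, Ace and Dpp4 lie right of 0 from day 5 of the time course and in Wnt3-CM, Enpp7 lies left of 0 in all comparisons but Wnt3-CM and the Cdk8 fl/fl/Cdk19-/- line, and the IEC values lie near or left of 0, with a standard error of 0.86 for Mep1a.

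Organoids of the same line grown in Wnt3-CM, which supplies a Wnt ligand from outside, addressed whether the response depends on the medium. On day 10 in Wnt3-CM, 7 of the 9 genes rose with 4-OHT and 0 fell, where 9.45% and 7.42% of all genes tested did. Anpep was at 58.2, 87.5 and 81.6 CPM with EtOH and 449.8, 559.5 and 463 with 4-OHT, with a log2 fold change of 2.70 ± 0.17 (SE, adjusted p = 2.04e-05), a 6.48-fold rise. Mep1a was at 13.0, 11.5 and 12.9 CPM with EtOH and 50.2, 62.5 and 55.1 with 4-OHT, a 4.49-fold rise (2.17, adjusted p = 8.24e-14). No library of one arm reached the other for either gene. Ace was at 50.6, 53.2 and 53.3 CPM with EtOH and 140.2, 149 and 128 with 4-OHT (1.41, adjusted p = 7.27e-13), Dpp4 at 43.4, 54.6 and 51.6 CPM with EtOH and 109, 134 and 129 with 4-OHT (1.31, adjusted p = 1.89e-09), and Xpnpep2 at 43.2, 29.5 and 31.3 CPM with EtOH and 97.1, 83.1 and 72.1 with 4-OHT (1.28, adjusted p = 0.000923). These 3 peptidase genes rose 2.66-, 2.48- and 2.42-fold, with all 4-OHT libraries above all EtOH libraries. Enpep was at 129, 77.3 and 84.5 CPM with EtOH and 265, 201 and 192 with 4-OHT (1.18, adjusted p = 0.0205). Its adjusted p was 0.0515 with no filter on low counts, and 0.0523 and 0.0586 without EtOH replicate 2 or 3.

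Mep1b, Alpi and Enpp7 gave smaller fold changes in this medium. Mep1b was at 451, 453 and 451 CPM with EtOH and 355, 325 and 345 with 4-OHT, so every 4-OHT library was below every EtOH library, with a log2 fold change of -0.40 ± 0.065 (SE, adjusted p = 2.75e-05), a difference under the fold cutoff. Alpi was at 726, 458 and 517 CPM with EtOH and 964, 699.6 and 661 with 4-OHT, where the arms overlapped (0.45, adjusted p = 0.208). Without EtOH replicate 1 Alpi passed, at 0.67 with adjusted p = 0.0088. Enpp7 was at 5.78, 5.67 and 7.16 CPM with EtOH and 10.1, 9.48 and 8.81 with 4-OHT, all 4-OHT libraries above, and its 1.52-fold rise (0.61, adjusted p = 0.000694) lay just past the cutoff. Leaving out EtOH replicate 1, EtOH replicate 2 or 4-OHT replicate 1 brought it to 0.56, 0.55 and 0.56, under the fold cutoff. All libraries lay above the controls in 7 of the 9 genes and below in 1, against 28.2% and 28.1% of all genes.

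The responses in the 2 media were compared directly on day 10 in a joint fit of 12 libraries, where 7.11% of all genes had a higher log2 fold change in Wnt3-CM and 6.21% a lower one. The fold change of Anpep was higher by 1.71 ± 0.16 on the log2 scale (adjusted p = 2.53e-06), a rise in both media. That of Enpp7 was higher by 1.88 ± 0.29 (adjusted p = 0.000383) and turned sign, from a fall of -1.28 in standard medium to a smaller rise of 0.61 in Wnt3-CM. Mep1b differed by -1.22 ± 0.10 (adjusted p = 5.45e-08), with a rise in standard medium and lower values in Wnt3-CM. The other 6 did not pass, among them Mep1a (0.28, adjusted p = 0.124) and Ace (-0.31, adjusted p = 0.102). Enpep passed without Wnt3-CM EtOH replicate 1 (0.94) and Xpnpep2 without day 10 4-OHT replicate 1 (0.86). In Wnt3-CM, Anpep with EtOH was at 75.8 ± 15.5 CPM (mean ± SD, n = 3) and with 4-OHT at 491 ± 60.0, beside 294 ± 7.06 and 581 ± 25.2 in standard medium. Levels across the media come from tables normalized separately, and the medium cannot be told apart from the table, so only the responses were compared.

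**Figure D3:**
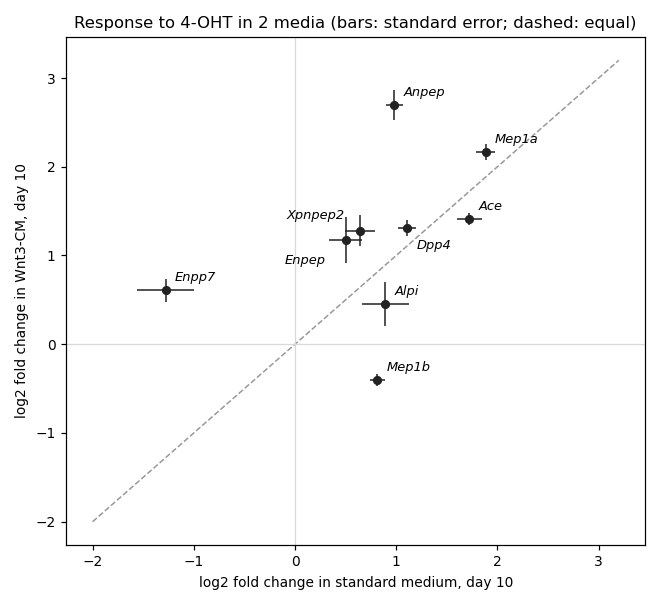
Log2 fold change of 4-OHT over EtOH on day 10 in Wnt3-CM (vertical axis) against standard medium (horizontal axis), with bars for the standard error and a dashed line where both are equal. Anpep and Enpp7 stand well above the line and Mep1b well below it, at 0.81 in standard medium and -0.40 in Wnt3-CM.

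On day 7, 5 organoid lines with no loss, a single loss or the combined loss were sequenced, and the single-loss lines were not tested against the combined line. CDK8iIEC-KO organoids were set against VillinCreERT2 organoids, and 0 of the 9 genes rose and 4 fell, where 2.9% and 4.34% of all genes did. Enpp7 fell 13.0-fold, from 91.9, 172 and 133 to 8.09, 9.16 and 13.4 CPM (-3.70, adjusted p = 2.53e-06). Alpi fell 2.03-fold, from 1265, 1194 and 1521 to 650.5, 635 and 672 CPM (-1.02, adjusted p = 6.4e-09). The groups stood well apart in both. Enpep fell 1.96-fold, from 611, 772 and 630.0 to 338, 342 and 346 CPM (-0.97, adjusted p = 1.03e-10). Xpnpep2 fell 1.86-fold, from 46.4, 58.0 and 41.6 to 24.8, 25.0 and 28.7 CPM (-0.90, adjusted p = 1.05e-05). All libraries lay above the controls in 0 of the 9 genes and below in 5, against 24.6% and 20.3% of all genes. Mep1a (-0.52, adjusted p = 0.0196) and Mep1b (-0.54, adjusted p = 0.00118) were under the fold cutoff, and each passed downwards when a single library was left out, Mep1a without CDK8iIEC-KO replicate 3 (-0.64) or VillinCreERT2 replicate 3 (-0.65). Mep1b passed without the first of these (-0.63), VillinCreERT2 replicate 1 (-0.61) or VillinCreERT2 replicate 3 (-0.59). Anpep, Dpp4 and Ace differed by -0.24, -0.14 and -0.17, with adjusted p from 0.0992 to 0.297. DESeq2 called the same number, 4, downwards and none upwards. In the same comparison 5 of 6 other brush border peptidases, 5 of 10 enterocyte markers and 4 of 10 peptide and amino acid carriers fell, and none rose. Among 7 alkaline phosphatase and ENPP relatives, 1 rose and 2 fell.

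Cdk8 fl/fl/Cdk19-/- organoids were set against C57BL/6 organoids, and 0 of the 9 genes passed edgeR's test with its fold cutoff, where 2.86% of all genes rose and 2.39% fell. By DESeq2 the count was also 0. In edgeR 5 of the 9 had an unadjusted p under 0.05, as did 4204 of all 15125 genes tested. Enpep (0.28, adjusted p = 0.00612) and Ace (-0.24, adjusted p = 0.0415) had an adjusted p under 0.05 with a fold under the cutoff. Log2 fold changes ran from -0.24 for Ace to 0.37 for Mep1a. Mep1a stood at 66.3, 73.9 and 64.8 CPM in C57BL/6 and 89.9, 91.9 and 82.8 in Cdk8 fl/fl/Cdk19-/- organoids, without overlap. All libraries lay above the controls in 5 genes and below in 2, against 15.1% and 15.7% of all genes.

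The control lines themselves differed in these genes. C57BL/6 organoids had less Alpi than VillinCreERT2 organoids, at 365, 378 and 381 against 1265, 1194 and 1521 CPM (-1.83, adjusted p = 9.69e-14). They also had less Enpp7, at 23.8, 28.0 and 22.2 against 91.9, 172 and 133 CPM (-2.42, adjusted p = 6.92e-06), and less Enpep, at 370.1, 369 and 365 against 611, 772 and 630.0 CPM (-0.87, adjusted p = 9.24e-11). These 3 were lower and 0 higher, where 10.9% and 15.5% of all genes were. All libraries lay above the controls in 2 of the 9 genes and below in 4, against 32.2% and 31.5% of all genes. The same 3 genes are among those lower in CDK8iIEC-KO than in VillinCreERT2 organoids, and both comparisons share the VillinCreERT2 libraries. Xist, the X-inactivation transcript, stood at 432, 342 and 366 CPM in VillinCreERT2 and 804, 599 and 587 in C57BL/6 organoids and at most 0.458 CPM in every library of the other 3 lines, a transcript of female cells. Ddx3y, a Y-linked gene, was at 0 in both control lines. It averaged 58.5 CPM in CDK8iIEC-KO, 56.6 in Cdk8 fl/fl/Cdk19-/- and 65.5 in CDK8iIEC-KO/Cdk19-/- organoids. Sex therefore cannot be told apart from genotype, for any of the 9 genes, where these 3 lines are set against a control line. Xpnpep2 is X-linked, and the part of sex in its values was not tested.

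CDK8iIEC-KO/Cdk19-/- organoids, set against VillinCreERT2 organoids, served in the choice of genes and are given as values. Ace was at 61.4, 70.2 and 68.3 CPM in VillinCreERT2 and 167, 182 and 143 in CDK8iIEC-KO/Cdk19-/- organoids, a fitted log2 fold change of 1.30 ± 0.077 (standard error). Anpep was at 459, 618 and 457 and 688, 820.3 and 772 (0.57 ± 0.11), and Dpp4 at 158, 189 and 148 and 239.8, 283 and 239 (0.62 ± 0.10). All libraries of these 3 genes were higher in the combined line. Mep1a was at 76.8, 98.6 and 64.3 and 108, 123 and 96.3 CPM (0.45 ± 0.15), with overlap, and Mep1b differed by 0.46 ± 0.10. Alpi was at 1265, 1194 and 1521 and 1656, 1362 and 1649 (0.23 ± 0.080), with overlap, and Xpnpep2 differed by -0.31 ± 0.11. Enpp7 was at 91.9, 172 and 133 and 8.0, 9.09 and 4.76, a fitted 18.2-fold lower level, and Enpep differed by -0.80 ± 0.069. All libraries of 4 genes lay above and of 2 below the VillinCreERT2 libraries, beside 29.4% and 30.5% of all genes, and nothing is read from these counts.

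**Figure D4:**
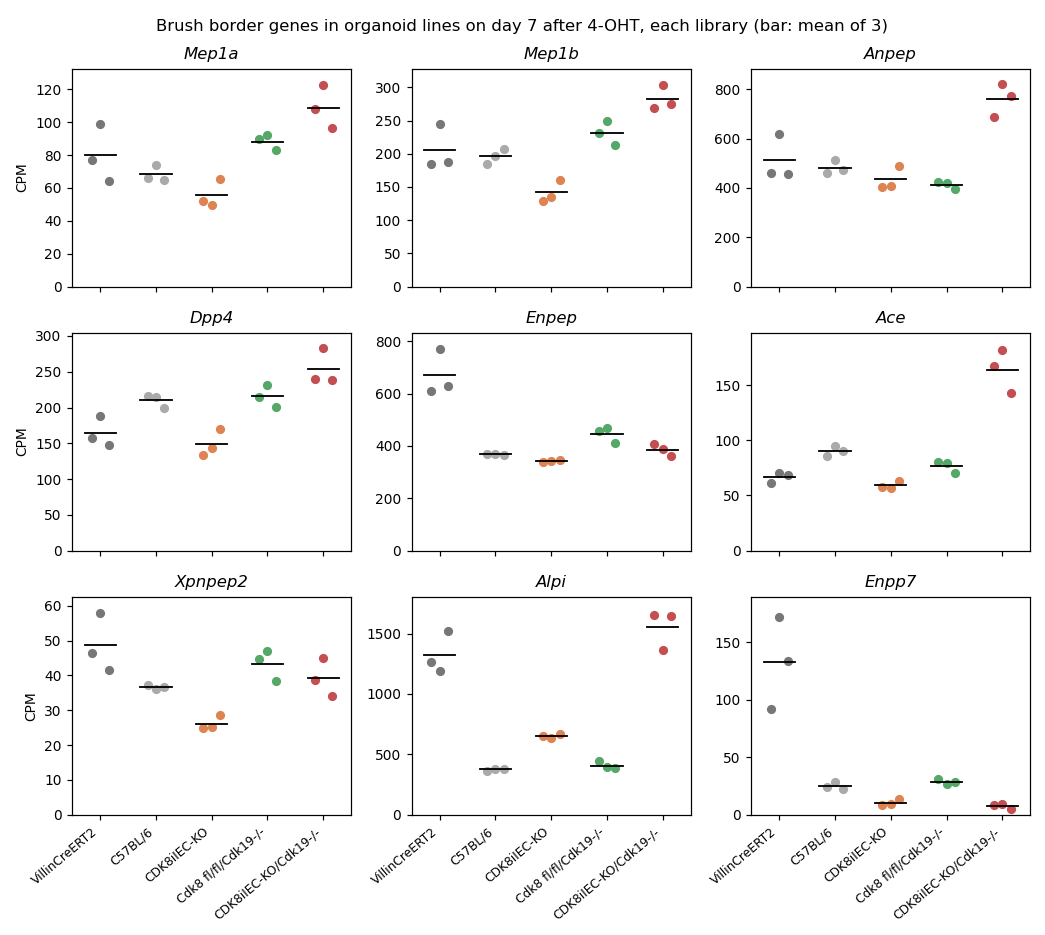
CPM of each gene (vertical axis) in 5 organoid lines on day 7 after 4-OHT (horizontal axis), with 1 point per library and a bar at the mean of 3. Ace is highest in CDK8iIEC-KO/Cdk19-/- organoids at 167, 182 and 143 CPM, and the VillinCreERT2 points of Enpep and Enpp7 stand above those of all other lines, C57BL/6 included.

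Organoids with the kinase-dead Cdk19 D173A allele served to ask whether loss of kinase activity gives the same response as loss of the protein. Their columns carry no genotype in the count table and were assigned as the only other organoids with an EtOH and a 4-OHT arm in it. Of the 9 genes, 2 rose with 4-OHT and 1 fell, where 6.05% and 6.25% of all genes did. Dpp4 was at 86.1, 136 and 117 CPM with EtOH and 209.6, 299 and 275 with 4-OHT, a 2.31-fold rise (1.21, adjusted p = 0.00776). Alpi was at 1155, 880.5 and 883 CPM with EtOH and 1818, 1716 and 1871 with 4-OHT, a 1.85-fold rise (0.89, adjusted p = 0.000263). Enpp7 was at 66.1, 70.1 and 67.1 CPM with EtOH and 31.7, 43.0 and 30.6 with 4-OHT, a 1.93-fold fall (-0.95, adjusted p = 0.000463). The arms of these 3 genes did not overlap. All libraries lay above the controls in 6 of the 9 genes and below in 2, against 21.6% and 21.6% of all genes.

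Other peptidase genes showed positive fold changes that did not pass edgeR's test without a replicate block. Mep1a was at 56.0, 88.4 and 87.9 CPM with EtOH and 101, 184 and 177 with 4-OHT (0.99, adjusted p = 0.0807), and Ace at 83.3, 132 and 126 CPM with EtOH and 141, 255 and 247 with 4-OHT (0.91, adjusted p = 0.0936). In both, replicate 1 of each arm was the lowest of its arm, and every 4-OHT library was above every EtOH library. Mep1b was at 174, 242 and 237 CPM with EtOH and 260.3, 429 and 393 with 4-OHT (0.73, adjusted p = 0.0653), and Anpep at 583, 872 and 881 CPM with EtOH and 811, 1555 and 1524 with 4-OHT (0.74, adjusted p = 0.176), the only one of these 4 whose arms overlapped. DESeq2 called Mep1a (adjusted p = 0.01), Mep1b (adjusted p = 9.99e-05) and Ace (adjusted p = 0.0169). With the number that ends the column names as a block, which the labels do not give as pairs, all 4 passed edgeR's test (adjusted p from 1.06e-08 for Mep1a to 1.82e-06 for Anpep). In edgeR's test without 4-OHT replicate 1, Mep1a (1.22, adjusted p = 0.0186), Mep1b, Anpep and Ace passed as well, which brought the total called from 3 to 7. Enpep was at 462, 439.6 and 437 CPM with EtOH and 619, 584 and 547 with 4-OHT (0.39, adjusted p = 0.00177), all higher, and Xpnpep2 at 67.2, 63.7 and 64.6 CPM with EtOH and 53.1, 55.9 and 53.3 with 4-OHT (-0.27, adjusted p = 0.0094), all lower, both under the fold cutoff. The response of these organoids was not tested against that of the Cdk19-/- line, which was collected and normalized separately.

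In IECs, 14 days after tamoxifen, none of these genes rose and Mep1b fell. By edgeR 0 of the 9 were higher and 1 lower, where 0.646% and 0.856% of all genes were. DESeq2 called 0 higher as well. In edgeR 5 of the 9 had an unadjusted p under 0.05, as did 3017 of all 15182 genes tested. Of these 5, Xpnpep2 was the one with a positive fold change. Mep1b was at 1312, 1218 and 1326 CPM in VillinCreERT2 and 758, 869.7 and 885 in CDK8iIEC-KO/Cdk19-/- IECs, without overlap. Its fall was 1.53-fold (-0.62, adjusted p = 0.0466), a call close to the threshold, with adjusted p = 0.0548 under median-of-ratios factors. Leaving out CDK8iIEC-KO/Cdk19-/- replicate 1 or 3, or any of the 3 VillinCreERT2 libraries, gave adjusted p from 0.0515 to 0.313.

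Enpp7 had the largest difference in IECs. It was at 659, 713 and 835 CPM in VillinCreERT2 and 107, 263 and 106 in CDK8iIEC-KO/Cdk19-/- IECs, so that all 3 libraries were lower, with a log2 fold change of -2.21 ± 0.39 (SE, adjusted p = 0.0611). The difference passed with DESeq2 (adjusted p = 0.000199), with at least 10 counts in every library (adjusted p = 0.0459), without CDK8iIEC-KO/Cdk19-/- replicate 2 (-2.79, adjusted p = 0.0112) and without VillinCreERT2 replicate 2 (adjusted p = 0.0267). Replicate 2 of the CDK8iIEC-KO/Cdk19-/- group also stood apart in the sex-linked transcripts, with Xist at 113, 1.11 and 116 CPM over the 3 replicates in order against 161, 134 and 169 in VillinCreERT2 IECs. Ddx3y, a Y-linked gene, was at 0.103, 30.2 and 0.0982 CPM and at 0 in all 3 VillinCreERT2 libraries, so that the CDK8iIEC-KO/Cdk19-/- group held IECs of more than 1 mouse and of both sexes. The part of sex in these values was not tested.

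Mep1a was at 215, 201 and 196 CPM in VillinCreERT2 and 26.0, 357 and 294 in CDK8iIEC-KO/Cdk19-/- IECs. Replicate 1 of the CDK8iIEC-KO/Cdk19-/- group held far less than its 2 companions, which both lay above every control, and the fitted log2 fold change of 0.15 had a standard error of 0.86. Alpi was at 3884, 3237 and 3123 CPM in VillinCreERT2 and 3285, 2923 and 4299.6 in CDK8iIEC-KO/Cdk19-/- IECs, with overlap (0.037, adjusted p = 0.927). Ace was at 2936, 2384 and 2847 CPM in VillinCreERT2 and 1743, 2134 and 2375 in CDK8iIEC-KO/Cdk19-/- IECs (-0.39, adjusted p = 0.233), all lower. Anpep was at 10956, 10698 and 12751 CPM in VillinCreERT2 and 6940.0, 10674 and 9459.5 in CDK8iIEC-KO/Cdk19-/- IECs (-0.35, adjusted p = 0.344), all lower by a small margin. The remaining 3 peptidase genes did not pass either. Enpep was at 1395, 1109 and 1549 CPM in VillinCreERT2 and 615, 1075 and 925 in CDK8iIEC-KO/Cdk19-/- IECs (-0.63, adjusted p = 0.194), all lower. Dpp4 was at 1125, 888 and 1153 CPM in VillinCreERT2 and 668, 969.7 and 864 in CDK8iIEC-KO/Cdk19-/- IECs (-0.34, adjusted p = 0.32), with overlap. Xpnpep2 was at 215, 196 and 221 CPM in VillinCreERT2 and 246, 271 and 252 in CDK8iIEC-KO/Cdk19-/- IECs (0.28, adjusted p = 0.178), all higher. With no filter on low counts Enpep passed downwards (adjusted p = 0.0187). All libraries lay below the controls in 5 of the 9 genes and above in 1, against 14.6% and 12.2% of all genes. The median log2 fold change of the 9 was -0.35, and 0.0048 over all genes tested.

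Other cell types were not evenly spread over the IEC libraries. The 6 mesenchyme markers summed to 12.8, 869.9 and 54.7 CPM in VillinCreERT2 and 952, 592 and 449 in CDK8iIEC-KO/Cdk19-/- IECs, and the 8 immune markers to 1659, 2987 and 2782 and 2897, 1854 and 1821. The 10 enterocyte markers summed to 30236, 29937 and 30870.1 and 35898, 29596 and 37920.1 CPM. The 4 endothelium markers summed to 1.32, 4.84 and 1.71 and 20.4, 11.3 and 11.2 CPM, and no marker of these 4 lists was at 0 in every IEC library. The part of these markers in the values of the brush border genes was not tested.

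**Figure D5:**
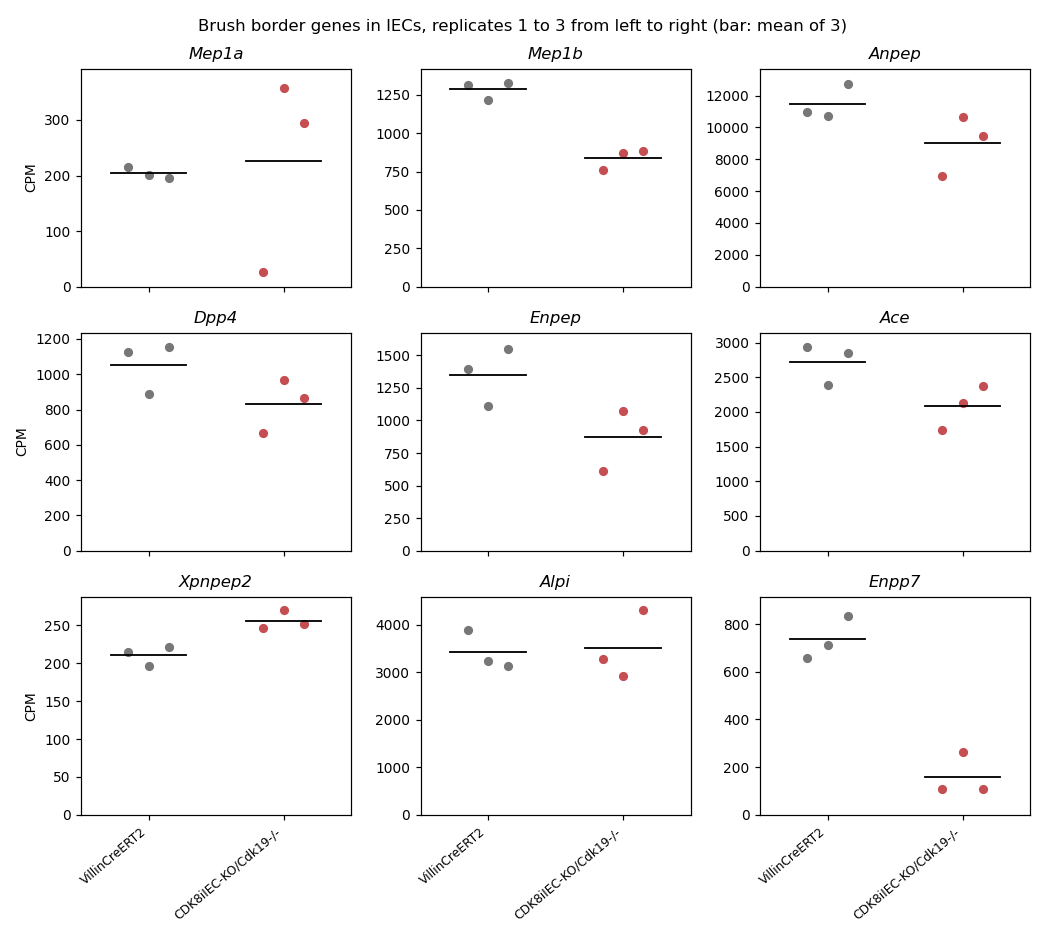
CPM of each gene (vertical axis) in VillinCreERT2 and CDK8iIEC-KO/Cdk19-/- IECs (horizontal axis), with replicates 1 to 3 from left to right and a bar at the mean of 3. Mep1a of CDK8iIEC-KO/Cdk19-/- replicate 1 sits near the bottom of the axis, the Enpp7 points of the 2 groups are apart, and Mep1b is lower in all 3 libraries.

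Genes around the same membrane were followed beside the 9, from lists chosen with earlier results known, and their values are log2 fold changes. On day 3 with 4-OHT, among other brush border peptidases 0 of 5 tested rose and 3 fell, with Mme, neprilysin, at -2.34, adjusted p = 3.28e-11. Among disaccharidases 0 of 4 tested rose and 3 fell, with Sis, sucrase-isomaltase, at -1.84, adjusted p = 2.67e-07 and Treh, trehalase, at -1.53, adjusted p = 1.19e-09. Among peptide and amino acid carriers 0 of 10 tested rose and 4 fell, with Slc6a19 at -1.79, adjusted p = 0.00547 and Slc6a20a at -1.53, adjusted p = 2.8e-05. Among enterocyte transcription factors 0 of 11 tested rose and 3 fell, with Hnf4g at -1.35, adjusted p = 3.9e-08 and Cdx1 at -0.91, adjusted p = 1.84e-12. Myo1a, the brush border myosin, was the only microvillus structure gene of 12 to pass (-1.03, adjusted p = 4.74e-09), and Cndp2 the only cytosolic peptidase gene of 8 (-0.94, adjusted p = 0.000468). Among alkaline phosphatase and ENPP relatives, Enpp1 rose (0.83, adjusted p = 0.000288) and Enpp3 fell (-0.66, adjusted p = 0.00846).

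By day 10 the neighbours that passed were mostly higher. Among other brush border peptidases 3 of 5 tested rose and 1 fell, with Naaladl1 at 1.24, adjusted p = 4.15e-05 and Ggt1, gamma-glutamyltransferase, at -0.98, adjusted p = 4.53e-07. Among peptide and amino acid carriers 5 of 10 tested rose and 0 fell, led by Slc7a8 at 2.01, adjusted p = 9e-15 and Slc7a9 at 1.15, adjusted p = 4.63e-13. Among microvillus structure genes 2 of 12 tested rose and 0 fell, Tmigd1 (1.85, adjusted p = 0.000365) and Cdhr5 (0.83, adjusted p = 9.2e-06). Maf (1.31, adjusted p = 9.39e-06) and Creb3l3 (0.74, adjusted p = 0.00102) were the 2 of 11 enterocyte transcription factors that rose, and Hnf4a differed by -0.24, adjusted p = 0.000725. Treh (0.63, adjusted p = 9.7e-05), Cndp2 (0.88, adjusted p = 0.00046) and Dpp7 (0.75, adjusted p = 1.43e-05) rose too. Enpp3 (-1.26, adjusted p = 0.000276) and Enpp1 (-0.73, adjusted p = 0.0014), relatives of Enpp7, fell with it. Slc15a1, the oligopeptide carrier, was at 0.19, adjusted p = 0.475, Slc6a19 at 0.87, adjusted p = 0.0517 and Vil1, villin, at 0.35, adjusted p = 5.64e-05. The median log2 fold change was 0.70 for the other peptidases and 0.68 for the carriers, beside 0.020 over all genes.

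In Wnt3-CM, 4 of 5 other brush border peptidases rose, led by Dpep1 (1.33, adjusted p = 0.000226) and Ggt1 (1.27, adjusted p = 7.22e-06), the latter having fallen in standard medium. Among carriers 4 of 10 tested rose and 0 fell, led by Slc6a19 (3.33, adjusted p = 0.00564) and Slc6a20a (2.30, adjusted p = 2.15e-05). Among alkaline phosphatase and ENPP relatives 2 of 6 tested rose and 1 fell, with a median of 0.036, Alppl2 at 3.01, adjusted p = 0.0228, Akp3 at 2.24, adjusted p = 0.0188 and Enpp3, the one that fell, at -1.63, adjusted p = 4.61e-06. Rises were also seen in Treh (2.08, adjusted p = 6.02e-14), Lct (0.66, adjusted p = 0.0175), Dpp7 (0.93, adjusted p = 5.02e-07), Pepd (0.89, adjusted p = 1.49e-09) and Tmigd1 (1.44, adjusted p = 0.0462). Ezr (-0.59, adjusted p = 2.7e-07) and Klf4 (-1.18, adjusted p = 7.82e-11) fell. In IECs, Slc15a1 (-0.79, adjusted p = 0.0453) and the transcription factor gene Elf3 (-0.63, adjusted p = 0.0453) fell and no gene of these lists rose. Slc6a19 (0.074, adjusted p = 0.797), Akp3 (-0.56, adjusted p = 0.289), Vil1 (-0.37, adjusted p = 0.163) and Hnf4a (-0.51, adjusted p = 0.0911) did not pass there.

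Markers of the epithelial cell types were summed and counted in the same libraries. The 7 Paneth cell markers summed to 8084 to 8306 CPM with EtOH and 2139 to 2541 with 4-OHT on day 10, and 7 of 7 fell. They summed to 3685 to 4333 and 4040.3 to 4868 CPM on day 3, 6760.3 to 7483 and 1861 to 2279 in Wnt3-CM, and 3809 to 6283 and 966 to 2159.5 in VillinCreERT2 and CDK8iIEC-KO/Cdk19-/- IECs. Of the 7, 1 rose and 0 fell on day 3, 0 rose and 7 fell in Wnt3-CM, and 0 rose and 3 fell in IECs. In Cdk19 D173A/- organoids they summed to 3281 to 3526 CPM with EtOH and 1689 to 1994 with 4-OHT, where 6 of 7 fell and 1 rose. Among the lines they summed to 2739 to 2851 in VillinCreERT2, 2399 to 2587 in CDK8iIEC-KO and 793 to 825 in CDK8iIEC-KO/Cdk19-/- organoids. The 10 enterocyte markers summed to 7418 to 8477 CPM with EtOH and 2764 to 3082 with 4-OHT on day 3, and to 11774 to 15218 and 16456 to 21603 on day 10. On day 3 7 of the 10 enterocyte markers fell and 0 rose, and on day 10 4 rose and 1 fell. None of these Paneth and enterocyte markers was at 0 in every library of a set. Tuft cell markers fell on day 10 in 2 of 2 tested (median log2 fold change -2.09), in Wnt3-CM in 4 of 4 tested (median log2 fold change -3.16), in Cdk19 D173A/- organoids in 4 of 4 tested (median log2 fold change -2.14) and in IECs in 2 of 4 tested (median log2 fold change -1.49), and none rose in these comparisons. Goblet cell markers fell in IECs in 3 of 7 tested (median log2 fold change -0.75) and stem cell markers in 2 of 6 tested (median log2 fold change -0.98), and none rose. In Cdk19 D173A/- organoids 2 of 7 goblet cell markers rose and 2 fell (median log2 fold change -0.48). The part of these cell types in the values of the 9 genes was not tested.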

How the data were processed

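PolyA RNA was sequenced (paired ends of 100 bp). The authors deposited unnormalized gene-level read counts. The submitters' processing notes name STAR 2.5.2, featureCounts, Subread 1.6.3 and mm10, and the strand setting is not given in the sources used here. 6 columns of IEC counts whose letters the labels do not explain were not used, so the planned comparison of kinase-dead IECs was not made. Wnt3-CM columns were mapped by their names and Cdk19 D173A/- columns by elimination.

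Counts were fitted with edgeR 4.0.16 (R 4.3.3), using filterByExpr, TMM factors and the robust quasi-likelihood F test, in fits of 24 (time course), 15 (lines), 6 (each other pair) and 12 libraries (both media). Called genes had a Benjamini-Hochberg adjusted p under 0.05 over all genes tested and a fold over 1.5. Standard errors are the log2 fold change over the root of F. The genes named in the text are all 9, up to 2 called genes per list and comparison, and 6 fixed neighbours, of which 1 is not reported here. The members and lists were chosen with earlier results of these data known. The procedure was tested on simulated data. Alternatives were median-of-ratios factors, no filter, at least 10 counts in every library, only the groups compared, DESeq2 1.42.0, a block for the replicate number, and each library left out. Positions are from GENCODE vM21 (GRCm38) and promoters from RefSeq (GRCm38.p6).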

Additional observations from a re-analysis of the deposited data

Results flagged for a closer look

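The responses to 4-OHT that differed between days or media by a test of the difference itself are gathered here. Between day 3 and day 5, the log2 response changed by 1.38 for Mep1a, 1.37 for Mep1b, 1.11 for Anpep, 0.99 for Dpp4, 2.49 for Enpep, 2.45 for Ace, 1.69 for Alpi and 0.73 for Xpnpep2. Between day 3 and day 10 it changed by 1.68 for Mep1a, 1.62 for Mep1b, 1.30 for Anpep, 1.42 for Dpp4, 2.83 for Enpep, 2.27 for Ace, 2.09 for Alpi and 0.97 for Xpnpep2. All 16 changes were upwards, with BH-adjusted p (edgeR) between 5.76e-13 and 0.0117, and both sets share the day 3 libraries. Between standard medium and Wnt3-CM on day 10, the response changed by -1.22 for Mep1b, 1.71 for Anpep and 1.88 for Enpp7. No group held more than 3 libraries, so single libraries were not tested for standing apart.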

How the results depend on the processing

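The counts of called genes among the 9 stayed within 1.5 times under most alternatives, with these exceptions. In Cdk19 D173A/- organoids DESeq2 called 6 and the replicate block 7 in place of 3, the added genes being Mep1a, Mep1b and Ace with both and Anpep with the block. In IECs the count of 1 became 0 with median-of-ratios factors and with the replicate block, and 2 with no filter, with at least 10 counts in every library and with DESeq2. With each library left out in turn it ranged from 1 to 3 for EtOH day 5 against day 3, from 3 to 7 for Cdk19 D173A/- organoids and from 0 to 2 for IECs. Signs turned for differences that passed no test. With at least 10 counts in every library, Anpep (-0.0051) and Dpp4 (-0.0074) turned from day 3 to day 5 with EtOH, and Dpp4 (-0.027) from day 3 to day 10. Leaving out single libraries gave -0.0069 to 0.11 for Anpep, -0.027 to 0.11 for Dpp4 and -0.012 to 0.16 for Xpnpep2 from day 3 to day 5 with EtOH, -0.015 to 0.13 for Dpp4 from day 3 to day 10, -0.0062 to 0.086 for Dpp4 in Cdk8 fl/fl/Cdk19-/- organoids, and -0.14 to 0.074 for Mep1b and -0.16 to 0.072 for Anpep between control lines. The turns came from day 3 EtOH replicate 2 (Dpp4), day 5 EtOH replicate 2 (Anpep, Xpnpep2), Cdk8 fl/fl/Cdk19-/- replicate 2 and VillinCreERT2 replicate 2. In IECs it gave -0.35 to 0.68 for Mep1a, negative without CDK8iIEC-KO/Cdk19-/- replicate 2 or 3 (-0.093), and -0.14 to 0.15 for Alpi, negative without CDK8iIEC-KO/Cdk19-/- replicate 3 or VillinCreERT2 replicate 3 (-0.013). The cause was not tested.

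Equal replicate numbers deviated together in every pair, at a correlation over 0.1, in none of the 15 comparisons checked, so they were not treated as pairs. For Wnt3-CM and Cdk19 D173A/- organoids the numbers end the column names, and the lowest correlations were 0.0951 and 0.0950, and 6 and 4 of 6 libraries were most like the equally numbered library of the other arm, a hint from the data and not from the labels. With the block, Wnt3-CM kept a count of 7, and Mep1a in IECs was at -0.38. The comparison of media was not fitted with the block. Over all genes, IECs gave 228 calls, and 1103 with no filter, 859 with DESeq2, 8 with the replicate block, 3, 5 and 1566 without VillinCreERT2 replicate 3, 1 and 2, and 42, 572 and 31 without CDK8iIEC-KO/Cdk19-/- replicate 1, 2 and 3. With at least 10 counts in every library, the calls over all genes fell to 1303 on day 5, 1187 for EtOH day 5 against day 3 and 476 for Cdk8 fl/fl/Cdk19-/- organoids, from 2040, 1848 and 794. With 3 libraries per group, a p that misses the threshold does not show that levels were alike.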

Other observations

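Other gene groups were counted in the same organoids with 4-OHT. Of 6 stem cell markers, 2 rose and 0 fell on day 3, and 0 rose and 5 fell on day 10, with median log2 fold changes of 0.38 and -1.09. In Wnt3-CM, 0 rose and 2 fell (median -0.26), and 4 had a higher log2 fold change than in standard medium by the test of the difference. Of 6 proliferation markers, 0 rose and 0 fell on day 3, and 0 rose and 3 fell on day 10. In Wnt3-CM, 1 rose and 0 fell, with a median of 0.19 beside -0.62 in standard medium, and 4 had a higher log2 fold change than there. Of 6 genes typical of the distal small intestine, 1 rose and 1 fell on day 3, 3 rose and 0 fell on day 5, and 4 rose and 0 fell on day 10. Among the lines, against VillinCreERT2, 1 of these 6 was higher and 3 lower in CDK8iIEC-KO/Cdk19-/- organoids. In CDK8iIEC-KO organoids 0 were higher and 4 lower. Of 7 genes typical of the proximal small intestine 6 were tested, of which 0 rose and 3 fell on day 3, 0 rose and 1 fell on day 5, and 1 rose and 0 fell on day 10. In Wnt3-CM, 3 of 6 proximal genes tested rose and 0 fell, and 1 of 5 distal genes tested rose and 1 fell. Of 7 goblet cell markers, 0 rose and 2 fell on day 10, and 0 rose and 4 fell in Wnt3-CM.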
